A study of Mus musculus with 4 samples.

Results

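The 10 genes described here control growth before and after birth: Dlk1, Grb10, Igf2, H19, Igf2r, Sgce, Peg3, Mest and Cdkn1c are imprinted in the mouse, and Hmga2 is a chromatin gene of the fetal growth period. They were taken by name, as all gene probes whose accession in the array design maps to one of these symbols. A probe was found for 9 of the 10 genes, of 17305 genes with a symbol on the array. H19, the maternally expressed non-coding RNA next to Igf2, was not among the named probes and was not analysed here. The other 9 genes had 15 probes on 24 spots, and 13 of these probes, for 8 genes, were bright enough to be tested.

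In the study, C57BL/6 mice aged 90 postnatal days (P90) were compared with C57BL/6 mice aged 30 postnatal days (P30), using RNA of the scraped colonic mucosa. The mice carried no transgene or treatment in the labels. Each of 4 two-colour arrays, named a, b, e and k, received 0.4 µg of 1 P90 RNA and 0.4 µg of 1 P30 RNA. On array e the P90 RNA carried Cy5, and on the other 3 arrays it carried Cy3. The labels call the 4 comparisons independent without saying how many animals gave RNA, so p-values measure the spread between these 4 arrays, part of which may be technical.

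Genomic imprinting silences the copy of a gene from one parent. Paternally expressed genes such as Igf2, Dlk1, Mest and Peg3 mostly promote growth, and maternally expressed genes such as Igf2r, Grb10 and Cdkn1c mostly restrain it. Many of them are high in fetal tissues and decline in several mouse organs during juvenile life. Hmga2 is not imprinted but follows a similar course and is repressed by let-7 microRNAs.

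Of the genes below, Dlk1, Grb10 and Hmga2 were lower at P90 on every array by their brightest probe and have start sites listed by RefSeq, so the 250 bases before each start site are shown. The sequences are from RefSeq on build GRCm38.p6, 5′ to 3′ on the gene's own strand, with each CG in capitals. Dlk1 has 1 listed start (chr12:109452573-109452822, plus strand), Grb10 has a distal start (chr11:12037421-12037670, minus strand) and a start further into the gene (chr11:12027972-12028221, minus strand), and Hmga2 has 1 (chr10:120476470-120476719, minus strand).
Dlk1: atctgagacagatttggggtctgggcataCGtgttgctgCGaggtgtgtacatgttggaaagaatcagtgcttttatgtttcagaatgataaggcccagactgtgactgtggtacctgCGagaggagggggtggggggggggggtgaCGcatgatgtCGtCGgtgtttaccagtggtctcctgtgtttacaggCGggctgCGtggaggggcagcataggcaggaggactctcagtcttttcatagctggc
Grb10 distal start: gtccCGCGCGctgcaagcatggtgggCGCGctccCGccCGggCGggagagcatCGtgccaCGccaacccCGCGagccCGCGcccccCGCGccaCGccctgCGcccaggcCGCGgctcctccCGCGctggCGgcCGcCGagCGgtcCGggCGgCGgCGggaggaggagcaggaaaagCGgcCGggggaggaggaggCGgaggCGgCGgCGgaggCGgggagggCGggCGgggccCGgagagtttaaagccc
Grb10 inner start: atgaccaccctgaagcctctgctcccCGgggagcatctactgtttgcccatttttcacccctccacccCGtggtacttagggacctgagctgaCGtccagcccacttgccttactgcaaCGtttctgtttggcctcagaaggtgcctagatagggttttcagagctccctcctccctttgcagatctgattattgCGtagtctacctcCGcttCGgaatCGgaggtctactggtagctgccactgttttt
Hmga2: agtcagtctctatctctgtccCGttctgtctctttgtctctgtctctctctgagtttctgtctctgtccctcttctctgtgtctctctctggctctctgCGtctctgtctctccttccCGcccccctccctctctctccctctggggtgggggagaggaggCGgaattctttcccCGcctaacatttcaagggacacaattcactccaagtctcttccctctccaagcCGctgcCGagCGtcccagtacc

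The distal Grb10 window held 40 CG, and 1.31% of the 32841 listed mouse promoters had at least as many. The inner Grb10 window, the Dlk1 window and the Hmga2 window held 8 each, against a median of 6 over all promoters. RefSeq start sites were matched for 7 of the 10 genes, with 13 windows in all. Their CG counts ran from 1 in a window of Igf2 to 40. TATAAA, searched on both strands, was in none of the 13 windows and in 12.4% of all promoters. Of the windows shown above, GGGCGG, searched on both strands, was in the distal Grb10 window and the Hmga2 window. It was not in the Dlk1 window or the inner Grb10 window. Among the windows not shown, it was in that of Igf2r, in every Mest window and in some Igf2 windows, but not in that of Peg3. Of all promoters, 32.7% held it. These letter matches are descriptions of the windows and no measure of binding.

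Values are given as log2 P90/P30, below 0 where P90 was lower, after background correction with an offset of 50 intensity units and a loess correction within each array. The offset pulls the ratios of dim probes towards 0. Intensities were not scaled between arrays, so levels or summed levels compared across arrays mix age with array brightness. Whether the ages overlapped in intensity is therefore a description only, and the ratio within each array is what was tested. Tests were limma's moderated test of the mean over 4 arrays, with Benjamini-Hochberg adjustment over all 27065 probes kept. No probe of any gene passed an adjusted p of 0.05 (0%), and the smallest adjusted p on the arrays was 0.584. Before adjustment, 2179 probes had a limma p under 0.05. A two-sided exact sign-flip permutation test of 4 arrays cannot reach 0.05. No member is therefore called as changed, and the values below describe these 4 pairs of RNA.

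The 4 arrays did not run alike. Array b correlated below 0 with the other arrays over all kept probes, with r of -0.31 to a, -0.28 to e and -0.18 to k, and over all gene probes its r to array a was -0.30. Arrays a, e and k correlated with each other at 0.32 to 0.60. The labels state the dyes of every array, so the labelled direction was kept, and the mean with the sign of array b turned is given for every member. All 4 arrays lay on 1 slide, so no slide difference could be set apart. Spots well above background made up 55.6 to 69.3% in the P90 channels and 64.6 to 71.0% in the P30 channels. The tissue label was checked with markers of colonic epithelium, of which 12 of 13 had a probe and all 12 were well above background in both channels of all arrays.

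Dlk1, Grb10 and Hmga2 were the members whose brightest probe was below 0 on all 4 arrays, and Cdkn1c was the member above 0 on all 4. Of the 13 kept member probes, 3 lay below 0 on all 4 arrays, where 7.75% of all kept probes did so, and 1 lay above 0 on all 4, where 6.57% of all kept probes did so. The same 3 probes were lower at P90 with an unadjusted limma p under 0.05, against 5.18% of all kept probes, and the Cdkn1c probe was higher with such a p, against 2.87%. The mean was below 0 for 8 of the 13 probes and for 54.4% of all kept probes. These counts rest on the direction of array b. With its sign turned, 11 of the 13 means were below 0, where the median of all kept probes was 0.0015. The limma p was then 0.749 for Dlk1, 0.0598 for the brightest Grb10 probe, 0.0348 for the brighter Hmga2 probe and 0.379 for Cdkn1c. In that setting 6634 of 27065 kept probes had an unadjusted limma p under 0.05, against 2179 with the labelled direction. Without array b, 11 of the 13 means were also below 0, where the median of all kept probes was -0.012. There, 6258 kept probes had such a p. No test of the members as a group is given.

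**Figure D1:**
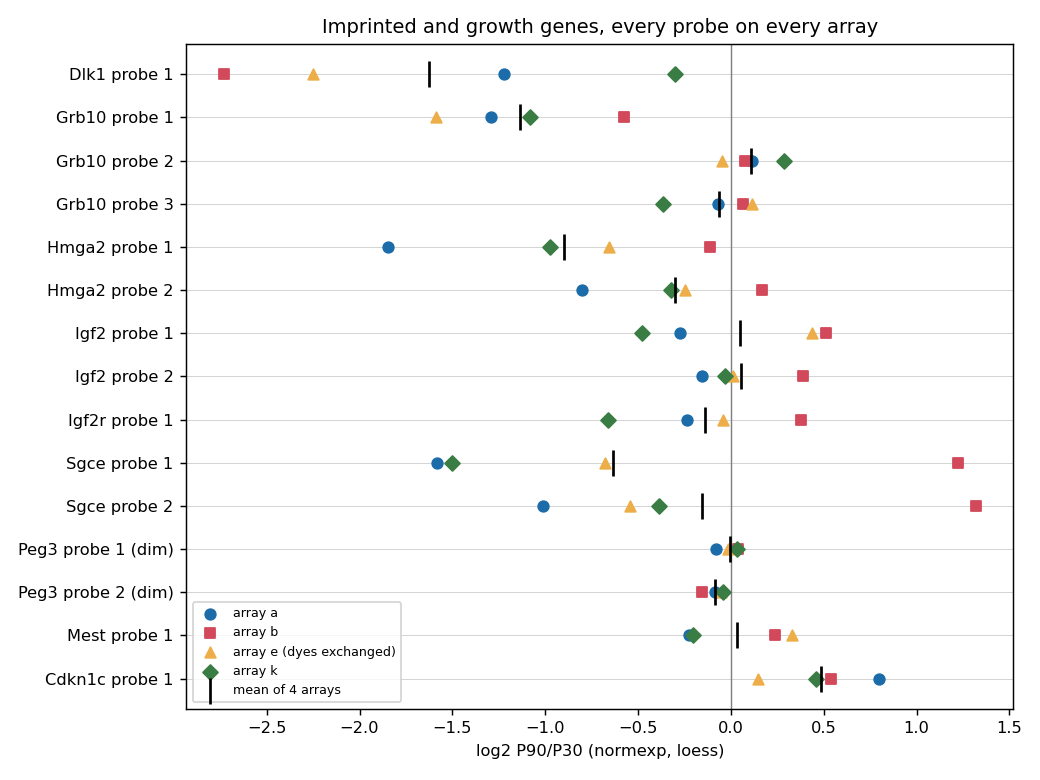
Log2 P90/P30 of each of the 15 member probes (rows) on arrays a, b, e and k (symbols), with the mean of the 4 arrays as a vertical bar; values below 0 are lower at P90. The probes of Dlk1, the first of Grb10 and the first of Hmga2 lie below 0 on all 4 arrays, Cdkn1c lies above 0 on all 4, and both Sgce probes lie above 0 on array b alone.

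Dlk1 is a membrane protein related to the Notch ligands that holds precursor cells, such as preadipocytes, undifferentiated. Its intensity was 179, 94.3, 112 and 77.9 at P90 on arrays a, b, e and k, against 417, 625, 535 and 96.1 at P30. P90 was the lower RNA on each array. Across arrays, which were not scaled to each other, the ages overlapped, because the P30 RNA of array k was dimmer than the P90 RNA of arrays a and e. The log2 P90/P30 values were -1.22, -2.73, -2.25 and -0.30. Their mean of -1.63 ± 1.08 (SD, n = 4) made Dlk1 3.09-fold lower at P90, with a limma p of 0.0076 and an adjusted p of 0.584. Array b, which opposed the others over the whole array, had the largest Dlk1 decrease. The mean was -1.26 without array b and -0.26 with its sign turned. With the smaller offset of 10 it was -2.05, and in the authors' deposited value table it was -2.54.

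Igf2 is the paternally expressed growth factor that acts through the Igf1 and insulin receptors. It had 2 probes, 1 of them printed on 10 spots of each array. Intensity of that probe was 142, 215, 241 and 117 at P90, against 171, 150, 178 and 163 at P30. P90 was the higher RNA on arrays b and e and the lower one on arrays a and k. The mean log2 P90/P30 was 0.050 ± 0.50 (SD, n = 4). The repeated spots show the noise between spots of 1 hybridisation, which leaves out labelling and RNA. Within an array the spots used (8 or 9) differed by an SD of 0.062 to 0.092, while the array means differed by an SD of 0.50. Every spot of arrays b and e lay above 0 and every spot of arrays a and k below 0, spots marked as outliers included. The second probe gave -0.16, 0.39, 0.013 and -0.032, with a mean of 0.053 ± 0.23. It was near the limit of measurement, at 73.2 to 98.2 at P90, and well above background at P90 on 2 of 4 arrays. The means of both probes changed sign under other settings, so no direction with age was found for Igf2 in these arrays. With the sign of array b turned they were -0.21 and -0.14.

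**Figure D2:**
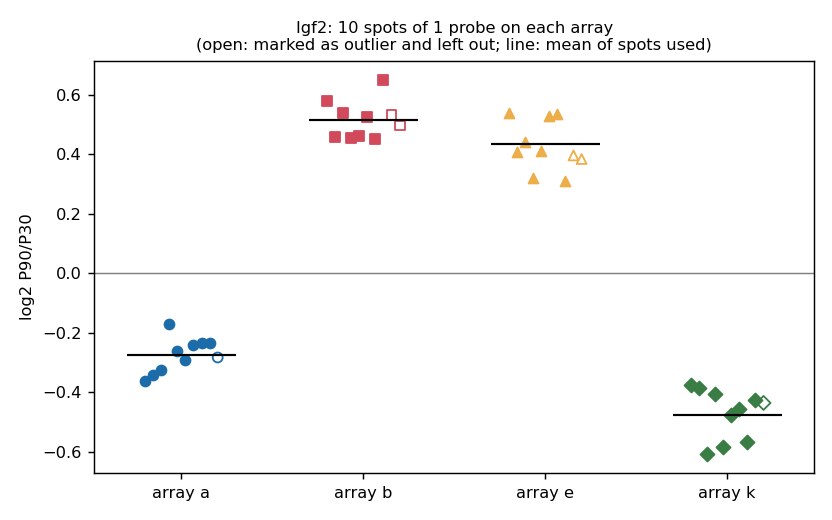
Log2 P90/P30 of the 10 spots of the brightest Igf2 probe on each array (x axis); filled points were used, open points were marked as outliers and left out, and lines are means of the spots used. The spots of each array cluster within 1 sign: array a spans -0.36 to -0.17, array b 0.45 to 0.65, array e 0.31 to 0.54 and array k -0.61 to -0.38.

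Igf2r, the receptor that binds Igf2 and takes it to lysosomes, is maternally expressed. Its single probe was far above background, at 12294, 16535, 9916 and 5582 at P90, against 14479, 12734, 10218 and 8830 at P30. The ages overlapped over nearly their whole range, and P90 was higher than P30 on array b alone. The mean log2 P90/P30 was -0.14 ± 0.43 (SD, n = 4, limma adjusted p = 0.885). It was -0.33 with the sign of array b turned, -0.31 without array b, 0.032 without array k and -0.48 with median centring in place of loess, where the median of all probes was -0.20.

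Grb10 encodes an adaptor that binds the insulin and Igf1 receptors and restrains their signalling. In most mouse tissues it is expressed from the maternal copy, and in neurons from the paternal copy through another promoter. The brightest of its 3 probes had intensities of 133, 183, 167 and 85.8 at P90, against 326, 272, 502 and 181 at P30. P90 was lower on each array, and the ages overlapped only through the P30 RNA of array k, which was just below the P90 RNA of array b. The log2 P90/P30 values of -1.29, -0.58, -1.59 and -1.08 gave a mean of -1.13 ± 0.43 (SD, n = 4), a 2.19-fold lower level at P90. The limma p was 0.00113 and the adjusted p 0.584. The mean was -1.32 without array b and -0.85 with its sign turned (limma p = 0.0598), and -2.20 in the authors' deposited value table. Without array b the limma adjusted p of this probe was 0.081, where 6258 of 27065 kept probes had an unadjusted p under 0.05.

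The other Grb10 probes did not follow the brightest one. The second probe had log2 P90/P30 of 0.11, 0.076, -0.045 and 0.29, with a mean of 0.11 ± 0.14 (SD, n = 4). It was 0.63 with processed signals, and in the authors' deposited value table this probe was above 0 on all 4 arrays, at 0.71, 0.32, 0.23 and 1.08. The third had -0.070, 0.064, 0.12 and -0.36, with a mean of -0.063 ± 0.21. With the sign of array b turned, the means of these probes were 0.070 and -0.096. Both were near the limit of measurement, with intensities of 60.5 to 95.1 over both ages, where the offset alone adds 50. The second probe was nevertheless well above background on all 4 arrays at both ages. The third was so on 2 arrays at P90 and 3 at P30, and the brightest on 3 arrays at P90 and 4 at P30. A filter that asked for this on all 4 arrays at both ages kept only the second Grb10 probe. The brightest probe lay below the second by -1.24 ± 0.40 and below the third by -1.07 ± 0.49 (mean difference in log2 P90/P30 ± SD). The difference had the same sign on all 4 arrays for each of the 2 pairs. On every array both dimmer probes lay nearer to 0 than the brightest one. The sign of the difference therefore repeats that of the brightest probe and is no separate result. In the authors' deposited value table, which has no offset, the second probe averaged 0.58 and the brightest -2.20. The part of the offset in the values of the dim probes was not tested. An exact sign-flip test cannot reach 0.05 with so few arrays. All 3 probes are assigned to the same RefSeq transcript in the array design. Which exons they match, and whether they see transcripts from the distal or the inner start shown above, was not tested.

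Hmga2 encodes an architectural chromatin protein that binds AT-rich DNA and is known from fetal and stem cells. Intensities of its brighter probe were 160, 425, 222 and 206 at P90, against 575, 459, 350 and 405 at P30. P90 was lower on each array, by little on array b, and the ages overlapped through the P90 RNA of array b. The log2 P90/P30 values were -1.84, -0.11, -0.66 and -0.98, and the mean of -0.90 ± 0.73 (SD, n = 4) made the P90 level 1.86-fold lower, with a limma p of 0.0206 and an adjusted p of 0.597. The largest decrease was on array a, and the mean without it was -0.58. The dimmer probe gave -0.80, 0.17, -0.25 and -0.32, with a mean of -0.30 ± 0.40. With the sign of array b turned the means were -0.84 for the brighter probe and -0.39 for the dimmer one. Both Hmga2 probes thus had their lowest ratio on array a and their highest on array b. In the authors' deposited value table, which has no offset, the means of the probes were -1.29 and -1.47, and the brighter probe was above 0 on array b, at 0.063.

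Cdkn1c encodes a cyclin-dependent kinase inhibitor that halts the cell cycle in differentiating cells, and is maternally expressed. Its intensity was 1094, 1456, 1306 and 1902 at P90, against 629, 1001, 1181 and 1386 at P30. P90 was higher on each array, and the ages overlapped. The log2 P90/P30 values of 0.80, 0.54, 0.15 and 0.46 gave a mean of 0.49 ± 0.27 (SD, n = 4), a 1.40-fold higher level at P90, with a limma p of 0.0182 and an adjusted p of 0.589. The smallest value was on array e, where the dyes were exchanged. The mean was 0.22 with the sign of array b turned. With median centring in place of loess, where the median of all probes was -0.20, it was 0.097 with a limma p of 0.648.

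**Figure D3:**
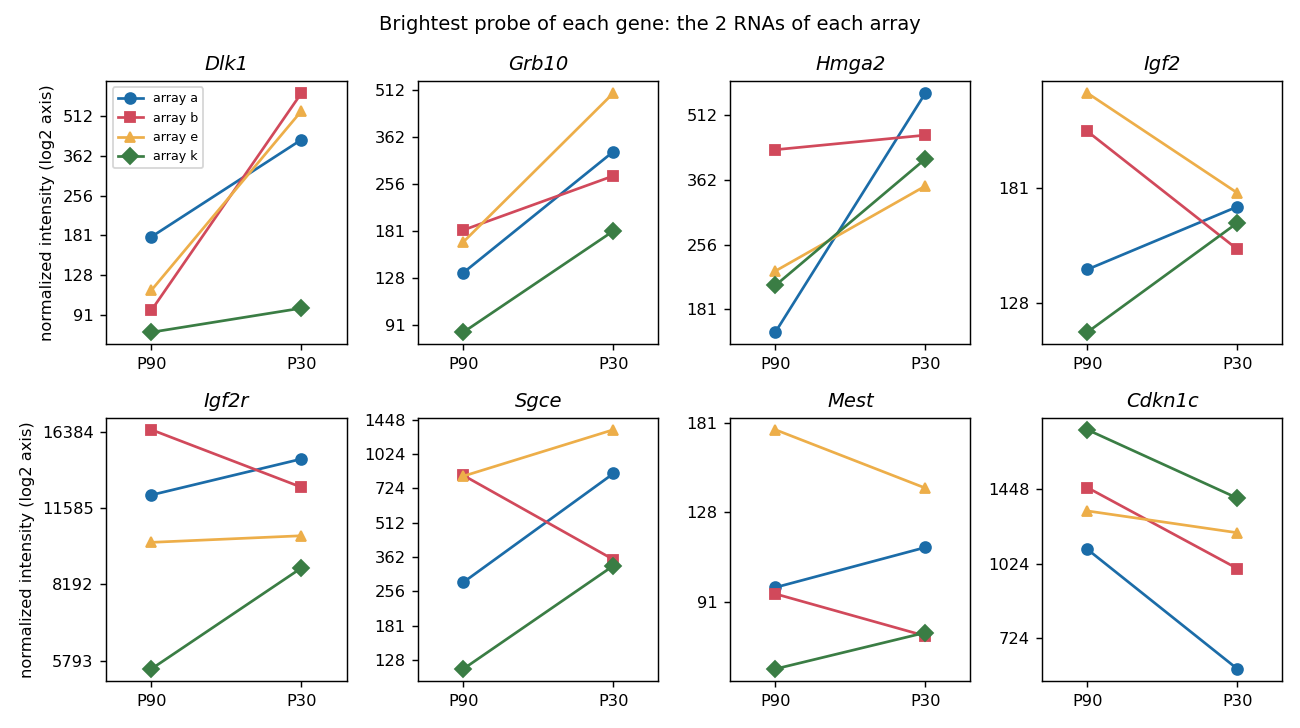
Normalized intensity (log2 axis, its own range in each panel) at P90 and P30 for the brightest probe of the 8 genes with a kept probe; each line joins the 2 RNAs of 1 array. P90 lies below P30 on all 4 lines for Dlk1, Grb10 and Hmga2 and above P30 on all 4 for Cdkn1c, while the direction differs between arrays for Igf2, Igf2r, Sgce and Mest.

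Sgce encodes epsilon-sarcoglycan, a membrane glycoprotein of muscle and other tissues, and is paternally expressed. The brighter of its 2 probes had intensities of 281, 825, 819 and 117 at P90, against 841, 353, 1308 and 332 at P30. P90 was lower on arrays a, e and k and higher on array b. The log2 P90/P30 values of -1.58, 1.23, -0.68 and -1.50 averaged -0.63 ± 1.31 (SD, n = 4, limma adjusted p = 0.752). The second probe followed the same signs, at -1.01, 1.32, -0.54 and -0.39, and averaged -0.16 ± 1.02, or -0.82 with the sign of array b turned. The mean of the brighter probe was -1.25 without array b, -1.25 with its sign turned and -0.32 without array a. Without array b the limma adjusted p of this probe was 0.083. In that setting p fell across the whole array: the smallest limma adjusted p was 0.081, and 6258 of 27065 probes had an unadjusted p under 0.05. That smallest value was also the one of the brightest Grb10 probe. With the sign of array b turned, the limma adjusted p of the brighter Sgce probe was 0.067, the smallest in that setting. There, 6634 probes had an unadjusted p under 0.05. The spread between arrays, not between probes, was the larger part of the Sgce values.

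Mest encodes a hydrolase of the endoplasmic reticulum, is paternally expressed and marks expanding adipose tissue in the mouse. Its intensity was 95.7, 93.3, 176 and 69.7 at P90, against 112, 79.3, 141 and 80.3 at P30. Most of these values were near the limit of measurement, and the probe was well above background at P90 on 3 of 4 arrays. The ratios split as for Igf2, above 0 on arrays b and e and below 0 on arrays a and k. They were -0.22, 0.24, 0.33 and -0.20, with a mean of 0.034 ± 0.29 (SD, n = 4), whose sign changed under other settings and which was -0.084 with the sign of array b turned. Peg3, a paternally expressed zinc finger gene, was not well above background in the P90 channel of any array and was so in the P30 channel of 1 array for each of its 2 probes. Its intensities ran from 63.3 to 72.7 at P90 and from 66.9 to 73.4 at P30, so the probes give no usable ratio, and they were not tested.

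The 8 measured genes fell into 4 sign patterns over arrays a, b, e and k by their brightest probe. Dlk1, Grb10 and Hmga2 were below 0 throughout, as were 8.42% of 13914 genes. Sgce and Igf2r were above 0 on array b alone, as were 20.3% of genes. Igf2 and Mest were above 0 on arrays b and e alone, as were 3.46%. Cdkn1c was above 0 throughout, as were 6.83%. Arrays a and k each had 7 of the 8 genes below 0, array e had 5 and array b had 3. In the order a, b, e and k, the median of the 8 was -0.75, 0.31, -0.35 and -0.57, while the median of all kept probes lay between -0.047 and -0.0015 on every array.

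Genes with ratios nearest to each member were found by Euclidean distance over the 4 log2 P90/P30 values, among 13914 genes with 1 probe each. The nearest to Dlk1 were Xaf1, Oas2 and Apol9b, at distances of 1.21, 1.25 and 1.42, with no gene closer. Those nearest to Grb10 were Parp9, Il1rl1 and Eif5, at 0.43 to 0.44, and those nearest to Hmga2 were Rbm28, Armc1 and Tomm70a, at 0.21 to 0.26. Sgce lay nearest to Chuk, Cxcl14 and Acsl3, and Natd1 and Mapre3 were among the genes nearest to Cdkn1c. Igf2r lay nearest to Eea1, Ildr1 and Unc93a, Igf2 to Slc22a23, Ece1 and Cyp1a1, and Mest to Golga2, Tbkbp1 and Mapk7. With 4 values a gene, such nearness is a description only.

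The RNA was from whole scraped mucosa, where fewer cells of a type and less RNA per cell cannot be told apart. Marker lists of other cells moved strongly between the paired RNAs. The 14 fibroblast and matrix markers all averaged below 0, against 54.4% of all kept probes, with array medians of -2.73, 1.22, -1.39 and -2.02 on a, b, e and k. Their summed intensity ran from 2958 to 43462 at P90 and from 17290 to 113282 at P30, and all 14 were kept. Sgce and Igf2r had the signs of this list on all 4 arrays, a pattern shared by 20.3% of all genes. The medians of the 10 endothelial markers, at -0.80, 0.89, -0.36 and -1.03, and of the 8 measured myeloid markers, at -1.05, 0.92, -0.33 and -0.87, also had these signs. The Igf2r value on array e was only -0.043. In the authors' deposited value table the brighter Sgce probe kept these signs, while Igf2r did not, at 0.28, 0.046, 0.079 and -0.49. Dlk1 did not have the signs of the matrix list: on array b it was -2.73 while the matrix median was 1.22. Summed endothelial markers ran from 1384 to 6679 at P90 and from 2968 to 10370 at P30, and summed myeloid markers from 3510 to 6806 at P90 and from 4258 to 7939 at P30. The part of these cells in the member values was not tested.

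Cell cycle markers averaged below 0 for 14 of 15 genes, against 54.4% of all kept probes. Of these markers, 9 were below 0 on all 4 arrays, against 8.42% of 13914 genes. The medians of the list were -1.11, -0.55, -0.70 and -0.24. Its summed intensity ran from 28080 to 57450 at P90 and from 43604 to 85436 at P30. Dlk1, Grb10 and Hmga2 had the sign of this list on all 4 arrays and Cdkn1c the opposite sign on all 4. The 8 measured adipocyte markers, relevant to Dlk1 and Mest, averaged above 0 in 8 of 8 cases, while 54.4% of all kept probes averaged below 0. The medians of these markers were 0.13, 2.20, 5.45 and 0.45. Their sums ran from 5694 to 207064 at P90, the highest on array e, and from 4998 to 11409 at P30. Dlk1 was below 0 on all 4 arrays. Mest was above 0 on arrays b and e, where the adipocyte medians were highest. The median of 9 lymphoid markers was -0.22, 0.50, 0.31 and -0.018, the signs of Igf2 and Mest, with sums of 1896 to 25527 at P90 and 3349 to 5902 at P30. The adipocyte marker Lep was too dim to be kept. Median values for smooth muscle were 0.25, 0.79, 0.63 and -0.82, for enteric neurons and glia 0.32, -0.30, 0.40 and -0.014, and for enteroendocrine cells -0.19, -0.90, 0.045 and 0.19. No median is given for colonic epithelium, since 8 of its 12 measured markers were saturated in the P30 channel of all 4 arrays and their ratios are set by the ceiling of the scanner. The part of any of these lists in the member values was not tested.

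**Figure D4:**
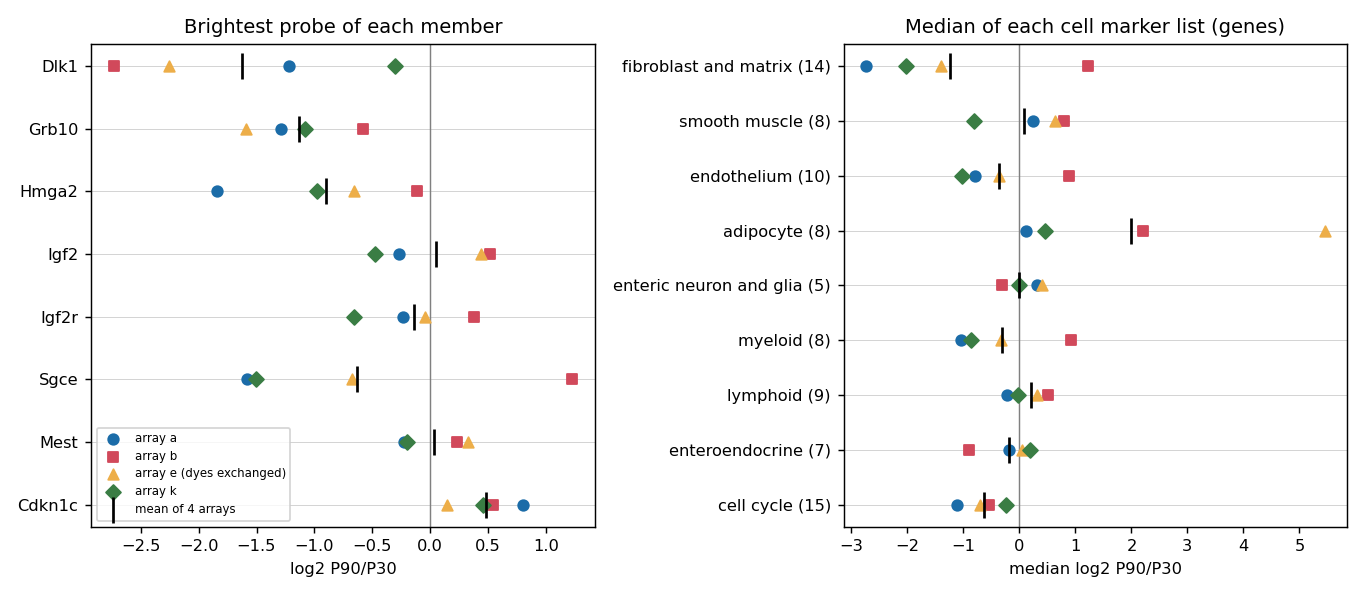
Left, log2 P90/P30 of the brightest probe of the 8 genes on each array; right, the median log2 P90/P30 of each cell marker list but the largely saturated epithelial one on each array, with the number of genes in brackets; vertical bars are the mean (left) and the median of gene means (right). The matrix, endothelial and myeloid lists are above 0 on array b alone, as Sgce is, and the cell cycle list is below 0 on all 4 arrays.

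Neighbouring genes within 1 Mb show how the imprinted clusters ran. Around Sgce, 6 imprinted neighbours were measured, all with a mean below 0, from -0.71 to -0.11, where 54.4% of all kept probes had a mean below 0. Asb4, Casd1, Tfpi2 and Pon2 (4 of 6) had the signs of Sgce on all 4 arrays, a pattern shared by 20.3% of all genes. Asb4 averaged -0.71 ± 0.95 and Casd1 -0.71 ± 1.22 (SD, n = 4). Pon3, a lactonase, was below 0 on all 4 arrays at -0.28 ± 0.11, and Ppp1r9a split otherwise. At the Dlk1 locus, Meg3, Rian, Mirg and Rtl1 had no named probe, and Dio3, the deiodinase that inactivates thyroid hormone, averaged 0.34 ± 0.78. The 2 neighbours of Grb10, Ddc and Cobl, averaged 0.17 and 0.13, so neither had the decrease of the brightest Grb10 probe. Around Cdkn1c, the 11 measured neighbours that are not members averaged between -0.36 and 0.29, and 1 of them, Osbpl5, was above 0 on all 4 arrays as Cdkn1c was, at 0.25 ± 0.29. The placenta growth gene Phlda2 in that cluster spread from -1.40 on array b to 1.38 on array e.

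Beyond the members, 40 of 59 other imprinted genes had a kept probe. Of these, 23 averaged below 0, against 54.4% of all kept probes, and 17 above. Mkrn3, Gatm and Pon3 were below 0 on all 4 arrays and Nnat and Osbpl5 above 0 on all 4. These are 3 and 2 of 40 genes, against 8.42% and 6.83% of 13914 genes. No gene of the list passed the adjusted threshold. Of the 40, 1 was lower at P90 with an unadjusted limma p under 0.05, against 5.18% of all kept probes. That gene was Gatm, the first enzyme of creatine synthesis, imprinted in mouse placenta. Its log2 P90/P30 was -0.88, -1.42, -0.93 and -0.80, with a mean of -1.01 ± 0.28 (SD, n = 4), and limma gave a p of 0.000644 and an adjusted p of 0.584. Peg12 averaged 0.69 ± 0.73. The brightest genes of the list, Cd81 and Nap1l4, averaged -0.092 ± 0.54 and -0.36 ± 0.37. The median of the gene means was -0.063, close to the -0.020 of all kept probes.

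**Figure D5:**
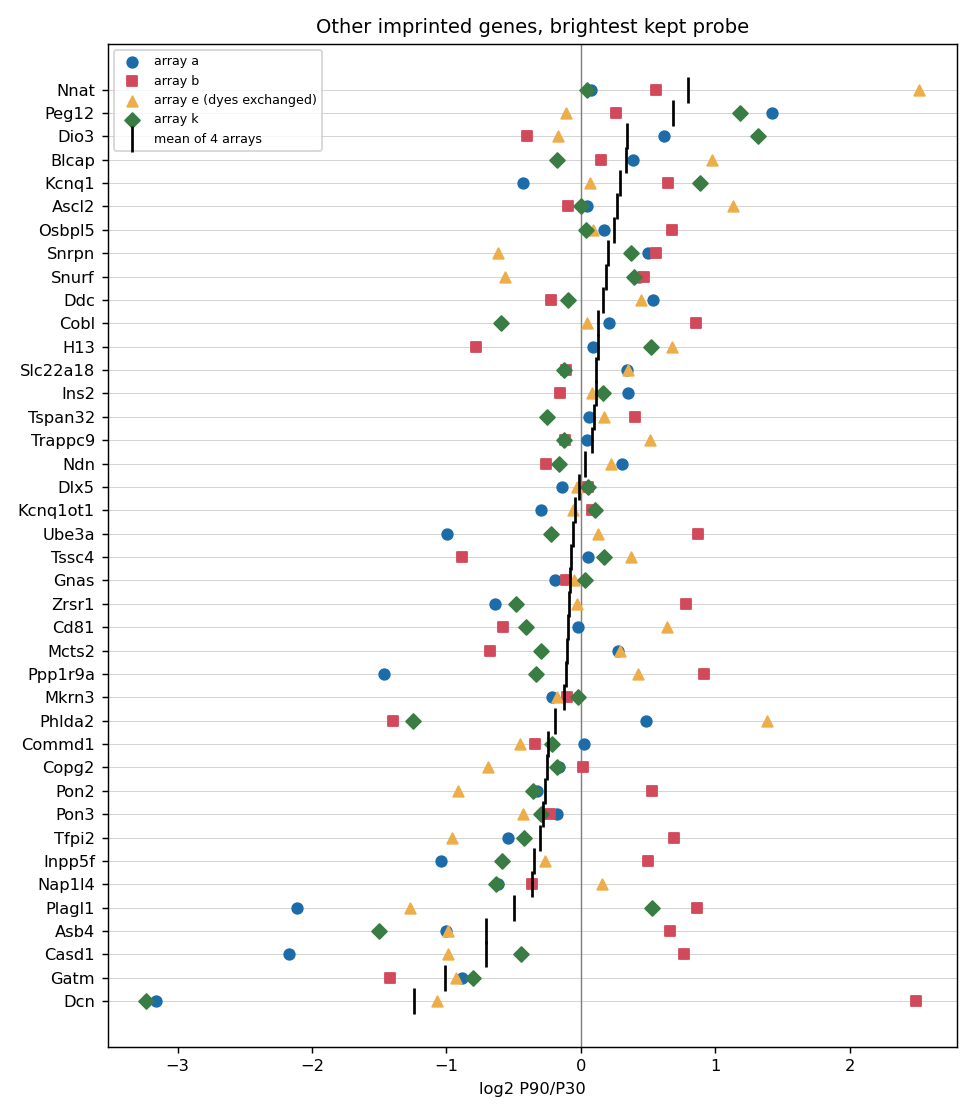
Log2 P90/P30 of the brightest kept probe of 40 other imprinted genes on arrays a, b, e and k, ordered by the mean of the 4 arrays (vertical bar), with genes of a higher mean at the top. Gatm lies below 0 on all 4 arrays with little spread, and most other genes lie on both sides of 0.

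In the IGF axis, the ligands, receptors and binding proteins around Igf2, 20 of 24 genes were kept. Of these, 14 averaged below 0, against 54.4% of all kept probes, and 6 above, with a median of -0.22. None passed the adjusted threshold. Of the 20, 1 was lower at P90 with an unadjusted limma p under 0.05, against 5.18% of all kept probes. It was Ide, a protease that degrades insulin, at -0.82 ± 0.71 (SD, n = 4). Igf2bp1, an RNA-binding protein of Igf2 mRNA, averaged -0.45 ± 0.45 and the docking protein Irs1 -0.62 ± 0.70. The medians of the list were -0.55, 0.52, -0.44 and -0.62 on arrays a, b, e and k, the signs of Igf2r and Sgce. Igfbp7, a binding protein and 1 of the 2 brightest genes, spread from -2.59 to 1.60 with a mean of -1.12 ± 1.93. Stat5b, the other, averaged 0.14 ± 0.27.

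In the list of postnatal growth genes around Hmga2, 17 of 22 genes were kept. Of these, 14 averaged below 0, against 54.4% of all kept probes, and 3 above, with a median of -0.23. None passed the adjusted threshold. Of the 17, 2 were lower with an unadjusted limma p under 0.05, against 5.18% of all kept probes. These 2 genes were Ccnd2, a cyclin of early cell cycle entry, at -1.10 ± 0.90, and Dnmt3b, a DNA methyltransferase, at -0.35 ± 0.22 (SD, n = 4). Ezh2, the histone methyltransferase of the Polycomb group, averaged -0.63 ± 0.67, and Hmga1, the relative of Hmga2, averaged -0.23 ± 0.29 and was below 0 on 3 of 4 arrays. Lin28a and Lin28b, which block let-7, and Cdkn2a were too dim to be tested.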

How the data were processed

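Two-colour array data of P90 and P30 colonic mucosa were used. Per the file headers, the scanner files give linear intensity as the median of each spot and of its local background. Also per the file headers, the log10 ratio deposited by the authors divides the processed Cy5 signal by the processed Cy3 signal. The series' value table was found to hold log2 P90/P30, since it matched the authors' deposited log ratio within 0.01 for 80.0 to 87.0% of probes. Its column medians over all probes were 0.205 (a), -0.170 (b), 0.0494 (e) and 0.167 (k), so over all probes it is not centred. Over the kept probes, the medians were -0.103 (a), -0.026 (b), 0.0007 (e) and -0.035 (k). Outlier, background and saturation marks (other, no unit) came from the deposited files. The software was Agilent Feature Extraction, 10.5.1.1 per the file headers and 8.5.1.1 per the submitters' processing notes.

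Probes were named by accession through RefSeq of GRCm38.p6 (25097 named, 16077 not). Background was corrected with normexp (offset 50), then loess (span 0.3) was applied within each array, in limma 3.58.1 under R 4.3.3. Outlier spots (127 to 156 an array) were left out, and every ratio was turned to log2 P90/P30. Probes well above background on at least 3 arrays at P90 or at P30 were kept (27065 of 41174, 65.7%) and spots of 1 probe averaged. The mean was tested against 0 with lmFit and eBayes and Benjamini-Hochberg adjustment over all kept probes, and the script was tested on simulated data. The members, lists and tests were chosen with earlier results of these data known. Of each other list the 3 genes of smallest p and the 2 brightest are named, and other list genes were named after their values were seen; some named genes are not reported here. The 18 alternatives changed the background correction, signal source, scaling, filter, model, array signs or the arrays included. The number of arrays limits the precision, and dim probes are measured less well than bright ones.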

Additional observations from a re-analysis of the deposited data

How the results depend on the processing

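No member probe passed the adjusted threshold in any of the 18 alternatives. Over all probes limma called 0 (2179 at an unadjusted p under 0.05), and 3, all higher at P90, with the smaller offset, processed signals, deposited log ratios or value table; none was a member. The probe counts at an unadjusted p under 0.05 ran from 637 with array e unturned to 6634 with array b turned. Leaving out 1 array gave 0 calls each time. Directions held in every alternative run for Dlk1 (-2.54 to -0.26), the brightest probes of Grb10 (-2.20 to -0.34), Hmga2 (-1.29 to -0.57) and Sgce (-1.25 to -0.30), the second probes of Grb10 and Hmga2, and Cdkn1c (0.097 with median centring to 0.60 with processed signals). Median centring moved the median of all probes to -0.20.

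Means that changed sign lay between -0.16 and 0.053 in the main setting, and some lay further from 0 in the alternatives, down to -0.62 for Mest. The cause was not tested. The brightest Igf2 probe gave -0.019 with processed signals, -0.12 with deposited log ratios, -0.014 in the value table, -0.16 with median centring, -0.051 with array weights, -0.21 with array b turned and -0.17 with array e unturned, and -0.10 to 0.23 leaving out 1 array. The second Igf2 probe gave -0.019 with array weights, -0.14 with array b turned and -0.059 to 0.12 leaving out 1 array. Mest gave -0.013 with no background correction, -0.47 with processed signals, -0.62 with deposited log ratios and in the value table, -0.0030 with median centring, -0.0069 with array weights, -0.084 with array b turned, -0.13 with array e unturned and -0.064 to 0.12 leaving out 1 array. The third Grb10 probe gave 0.084 with median centring and -0.12 to 0.037 leaving out 1 array, Igf2r -0.31 to 0.032 and the second Sgce probe -0.65 to 0.13, the last also 0.12 with array e unturned. The strict filter kept 7 member probes. The slide could not be a block, since there was 1 slide. Each ratio already pairs a P90 with a P30 RNA on 1 array, so no further replicate block was fitted.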
